A study of Mus musculus with 9 samples.

Results

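The genes described here are 10 members of the Notch pathway, namely the receptors Notch1, Notch2 and Notch4, the ligands Jag1, Jag2 and Dll4, the nuclear factor Rbpj, and the targets Hes1, Hey1 and Nrarp. They were found by symbol in a table of 45535 named genes, where each matched 1 row, and all 10 were among the 18202 genes with a mean of at least 10 that were tested. The study measured RNA of CD103+ dendritic cells from the lungs of C57/BL6j mice given bleomycin, an agent used to model lung fibrosis, with harvest at 7 days. Lungs were digested with collagenase and the cells were taken on magnetic beads. RNA came from 5 samples without culture (before culture) and from 4 samples that had first spent 18 h in culture, in RPMI to which serum and antibiotics were added (after culture). All 9 samples share the genotype and the bleomycin; the labels give no age and do not say whether a sample is 1 mouse or a pool, and the extraction text speaks of lung RNA. Since nothing says that the samples came from separate animals, p-values measure the spread between these samples, which may be technical.

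Notch receptors are membrane proteins that are cut when a ligand on a neighbouring cell binds them. The freed intracellular part enters the nucleus, joins the DNA-binding protein RBPJ and Mastermind proteins, and turns on genes such as those of the Hes and Hey repressors and Nrarp, a feedback inhibitor. In dendritic cells, Notch2 and Rbpj are known for their part in the development of subsets in spleen and gut, and in lung the pathway is also active in blood vessels, where Notch4, Dll4 and Hey1 are typical endothelial genes.

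Of the 10 genes, 7 were lower after culture, 1 was higher and 2 did not pass the test. Among all tested genes 34.6% were lower and 34.2% higher at a limma adjusted p under 0.05. The share of the 10 genes that were called in either direction is close to the 68.8% of all tested genes. A fall of at least 2-fold was met by 6 of the 10 genes and by 18.6% of all tested genes, and one of at least 4-fold by the same 6 genes and by 8.19% of all tested genes. The median log2 fold change of the 10 genes was −2.33, against 0.0065 over all tested genes. The groups did not overlap for 8 of the 10 genes (1 higher, 7 lower) and for 57.3% of all tested genes (28.7% higher, 28.6% lower). Fold changes on the log2 scale are of the normalized read count plus 1, and folds printed without that scale are ratios of group means of normalized read counts.

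**Figure D1:**
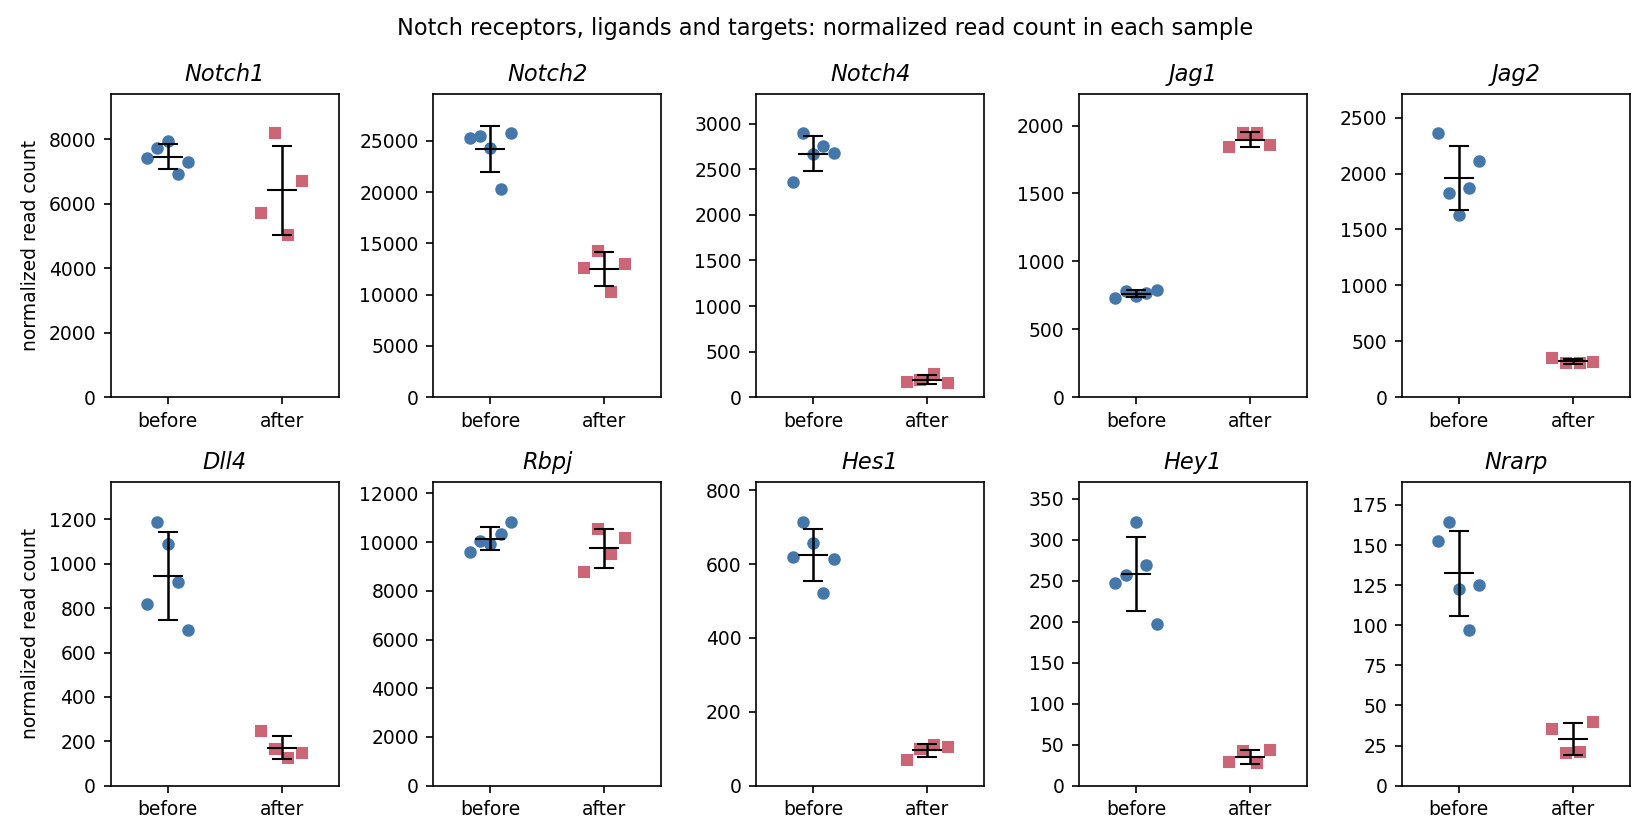
Normalized read count (vertical axes, each from 0) of the 10 genes in the 5 samples before (circles) and the 4 samples after culture (squares); the line is the mean and the bar the SD. The groups are apart for all but Notch1 and Rbpj, and Jag1 is the one gene that is higher after culture.

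Reads in named genes numbered 14673818 to 28793443 before and 26003300 to 35286110 after culture. A single read stood for 0.758 to 1.79 normalized counts, and the lowest of the 10 genes, Nrarp, was still covered by 23 to 160 reads per sample. Correlations of log2 values were 0.979 to 0.989 within groups and 0.871 to 0.897 between them. Replicate 4 before culture had the most epithelial marker RNA of its group, and so had replicate 3 after culture. The values below held their direction without either one. The marker genes of type 1 conventional dendritic cells (cDC1), the CD103+ lung subset, were read in every sample, but 8 of 11 were lower after culture and 3 higher. Itgae, which encodes CD103, went from 18138 ± 1537 (SD, n = 5) to 1727 ± 335 (SD, n = 4). Transcripts of other cells were read as well and are set out beside the results they move with.

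The receptors came first. Notch2 had the highest normalized read count of the receptors in every sample. Its count was 25307, 25509, 24335, 20340 and 25763 in replicates 1 to 5 before culture and 12637, 14265, 10294 and 12981 in replicates 1 to 4 after culture. Every sample after culture lay below every sample before, and replicate 4 was the low one before culture. The level after culture was 1.93-fold lower (log2 fold change −0.96, SE 0.105, adjusted p = 2.67e-06). The log2 fold change was −1.02 without that replicate and −0.51 in the fit that removed the trend of each sample over transcript GC content and length (the GC-corrected fit). Notch2 lies on chromosome 3 (GRCm38, 98013527 to 98150361, plus strand), and 3.86% of the 50-base windows of its longest transcript also occur in Gm42820, a gene on the same strand with normalized counts of 183 to 403.

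Notch1, the receptor best known from T cell development, had counts of 7414, 7724, 7944, 6932 and 7289 before culture and of 5723, 8197, 5031 and 6720 after culture. Replicate 2 after culture exceeded all samples before culture, and the other 3 lay below them, so the groups overlapped. The log2 fold change of −0.24 (SE 0.117) did not pass the test (adjusted p = 0.0832). Without replicate 2 after culture it was −0.37 and passed (adjusted p = 0.00379), while adjusted p ranged between 0.00379 and 0.272 when each of the 9 samples was omitted in turn. In the GC-corrected fit it turned to 0.36 and passed as higher (adjusted p = 0.00335). The direction of Notch1 therefore depends on that correction. The gene lies on chromosome 2 (26457903 to 26516663, minus strand). An opposite-strand gene, 0610009E02Rik, shares 10.3% of its windows but held counts of at most 51.9.

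Notch4, a receptor found mostly on endothelial cells, showed the largest fall of the 10 genes. Its counts were 2364, 2897, 2670, 2750 and 2680 before culture and 170, 187, 259 and 152 after culture. The highest sample after culture was far below the lowest before. Notch4 was 13.9-fold lower (log2 fold change −3.82, SE 0.131, adjusted p = 3.31e-11), which placed it at the 1.60 percentile of the fold changes of all tested genes. In the GC-corrected fit the change was −3.07. The gene lies on chromosome 17 (34564268 to 34588503, plus strand) and no window of its longest transcript occurs in another gene.

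Levels of different genes were compared per kilobase of the longest transcript. On this scale Notch2 made up 62.5 to 67.5% of the summed level of the 4 receptors before culture and 59.9 to 64.5% after. The share of Notch1 was 21.1 to 23.6% before and 32.3 to 38.1% after, and that of Notch4 10.1 to 13.5% before and 1.16 to 2.48% after culture. The shares of Notch1 and Notch4 did not overlap between groups, whereas those of Notch2 did. The summed receptor level was 3101 to 3710 normalized counts per kilobase before and 1586 to 2270 after culture, so the larger share of Notch1 stands within a smaller total. Notch3, the receptor of vessel wall cells, which is not among the 10 genes, held 0.441 to 0.732% before and 0.825 to 2.30% after culture; its count of 156 ± 37.2 (SD, n = 5) against 220 ± 69.2 (SD, n = 4) did not pass the test (log2 fold change 0.46, adjusted p = 0.0692). It passed as higher in the GC-corrected fit (1.16, adjusted p = 0.000512), with quantile normalization (0.69, adjusted p = 0.00911), with DESeq2 (0.49, adjusted p = 0.0457), with a block by library number (0.59, adjusted p = 0.0135), without replicate 2 before culture (0.59, adjusted p = 0.0244) and without replicate 2 after culture (0.63, adjusted p = 0.0168). With the length of all annotated exons in place of the longest transcript, an alternative chosen after seeing the data, Notch1 held 16.8% before and 26.9% after culture.

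**Figure D2:**
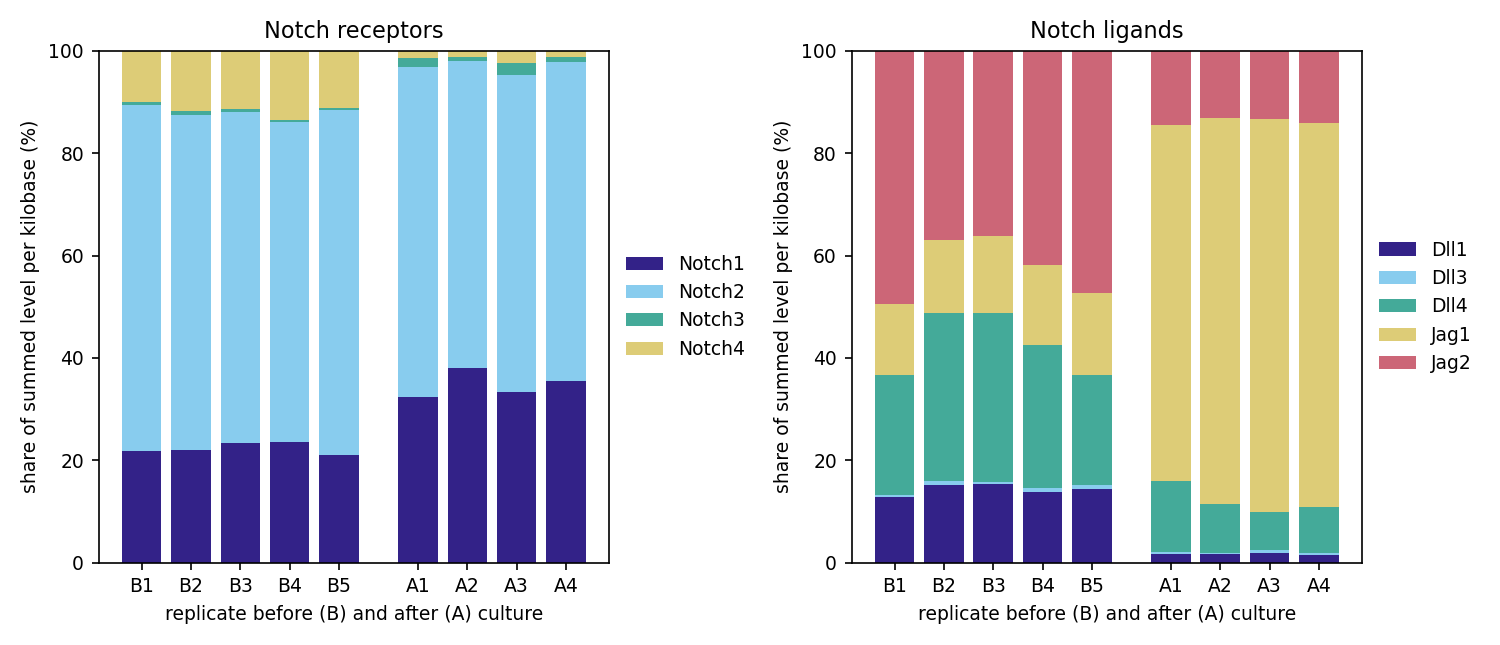
Share (%) of each receptor in the summed receptor level and of each ligand in the summed ligand level, per kilobase of longest transcript, in replicates 1 to 5 before (B) and 1 to 4 after culture (A). Replicates are numbered as in the sample titles, and the bars A2, A3 and A4 are the libraries numbered 3, 4 and 5. Notch2 leads the receptors in all samples; among ligands Jag2 leads before culture and Jag1 holds 69.6 to 76.7% after culture.

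The ligands moved in opposite directions. Jag1 encodes a ligand of the Jagged type and lies on chromosome 2 (137081456 to 137116644, minus strand). Its counts were 730, 781, 748, 767 and 788 before culture and 1843, 1945, 1943 and 1856 after culture. The samples of each group lay close together, with a coefficient of variation of 3.09% before and 2.89% after culture, and every sample after culture was above every sample before. Jag1 was 2.49-fold higher (log2 fold change 1.31, SE 0.0654, adjusted p = 1.09e-09), at the 90.6 percentile of all tested genes. Over all alternatives with every sample its log2 fold change ran from 1.30 to 1.37.

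Jag2, the other Jagged ligand (chromosome 12, 112907819 to 112929776, minus strand), had counts of 2361, 1828, 1627, 1870 and 2116 before culture and of 348, 306, 308 and 319 after culture. All samples after culture were far below those before. Jag2 was 6.12-fold lower (log2 fold change −2.60, SE 0.104, adjusted p = 1.36e-10). In the GC-corrected fit its log2 fold change was −1.85, the widest shift in that fit among the 3 ligands. Jag2 thus fell while Jag1 rose in the same samples.

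Dll4, a ligand of the Delta-like type that guides vessel sprouting and T cell fate, had counts of 819, 1190, 1092, 919 and 700 before culture and of 246, 165, 126 and 147 after culture. The groups did not overlap, but replicates varied more than for the Jagged ligands, with a coefficient of variation of 21.1% before and 30.6% after culture. Dll4 was 5.53-fold lower (log2 fold change −2.48, SE 0.190, adjusted p = 7.59e-08). The gene lies on chromosome 2 (119325784 to 119335962, plus strand), and 4.46% of its windows lie in Gm14207, on the opposite strand, whose counts were 5.37 to 16.7.

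Per kilobase, Jag2 held 36.1 to 49.4% of the summed level of 5 ligands before culture and Dll4 21.3 to 33.0%. Jag1 held 13.9 to 16.0% before and 69.6 to 76.7% after culture. After culture Jag2 held 13.0 to 14.4% and Dll4 7.42 to 13.9%. On this scale Jag2 was the leading ligand in each of the samples before culture and Jag1 in each of those after. With the length of all annotated exons, shares before culture overlapped between Jag2 (30.6 to 43.3%) and Dll4 (24.7 to 37.1%). The lead of Jag2 over Dll4 therefore depends on the length used. Jag1 held 72.1 to 79.4% after culture with that length. The summed ligand level was 875 to 969 normalized counts per kilobase before and 441 to 472 after culture. The 2 other ligands, which are not among the 10 genes, were both lower. Dll1 went from 466 ± 40.7 to 28.1 ± 3.20 (SD; log2 fold change −4.01, adjusted p = 2.37e-11) and Dll3, which is known as a decoy inside the cell, from 15.1 ± 4.04 to 4.66 ± 2.76 (SD; −1.67, adjusted p = 0.00551). The fall of Dll3 rests on few reads, at most 20 in any sample, and did not pass in the GC-corrected fit (adjusted p = 0.0637).

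The promoters of Jag1 and Jag2 are shown because these ligands moved in opposite directions, and that of Notch4 because it fell most. Each window runs from 250 bases before to 50 bases after the RefSeq start (GRCm38.p6), on the strand of the gene, 5′ to 3′, with CG dinucleotides in capitals. The windows are chr2:137116471-137116770 (minus) for Jag1, chr12:112929446-112929745 (minus) for Jag2 and chr17:34564045-34564344 (plus) for Notch4.
Jag1: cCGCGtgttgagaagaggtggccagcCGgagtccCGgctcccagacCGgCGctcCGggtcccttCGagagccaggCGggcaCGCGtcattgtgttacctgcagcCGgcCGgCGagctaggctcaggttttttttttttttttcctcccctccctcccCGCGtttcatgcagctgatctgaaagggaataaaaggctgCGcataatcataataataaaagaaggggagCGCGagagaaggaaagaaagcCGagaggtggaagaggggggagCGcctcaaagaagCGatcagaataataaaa
Jag2: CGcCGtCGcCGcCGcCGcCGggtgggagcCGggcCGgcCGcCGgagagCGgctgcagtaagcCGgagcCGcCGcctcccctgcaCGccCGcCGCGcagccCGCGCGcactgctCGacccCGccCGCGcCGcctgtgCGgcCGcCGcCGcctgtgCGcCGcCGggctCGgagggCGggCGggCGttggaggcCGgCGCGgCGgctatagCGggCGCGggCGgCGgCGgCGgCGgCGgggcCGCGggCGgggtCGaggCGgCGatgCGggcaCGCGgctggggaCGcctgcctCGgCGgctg
Notch4: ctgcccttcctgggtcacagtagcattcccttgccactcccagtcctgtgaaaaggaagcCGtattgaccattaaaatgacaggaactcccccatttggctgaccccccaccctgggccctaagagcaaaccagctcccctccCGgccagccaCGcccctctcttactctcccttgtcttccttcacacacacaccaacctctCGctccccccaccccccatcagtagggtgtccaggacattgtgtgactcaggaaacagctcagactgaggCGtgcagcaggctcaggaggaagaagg
The Jag2 window held 63 CG dinucleotides and a GC content of 86.0%, above 99.9% of the 32817 RefSeq promoters of this length. The Jag1 window held 22 and a GC content of 55.7%, near the median of 52.7% over all promoters. The Notch4 window held 5, with an observed to expected ratio of CG of 0.214 against a median of 0.383. Both Jagged ligands, with ratios of 0.959 and 1.14, thus have windows rich in CG although their RNA moved in opposite directions.

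Rbpj, the DNA-binding partner of all Notch receptors, stayed among the most abundant of the 10 genes. Its counts were 9591, 10026, 9934, 10348 and 10842 before culture and 8753, 10554, 9504 and 10168 after culture. The groups overlapped over most of their range. The log2 fold change was −0.061 (SE 0.0751) and did not pass the test (adjusted p = 0.488). In the GC-corrected fit it was −0.30 and passed (adjusted p = 0.00123). Of its windows, 22.8% also occur in the pseudogene Rbpj-ps3, which held counts of 5.31 to 16.1, so reads of these stretches could be assigned to either. The gene lies on chromosome 5 (53466152 to 53657362, plus strand).

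RBPJ recognises the letters TGGGAA, which were searched on both strands (as TTCCCA on the other). They occur in 25.6% of the 32817 RefSeq promoters, and in the longer form GTGGGAA, which contains the shorter one, in 6.39%. Entries were matched for 8 of the 10 genes, all but Hes1 and Hey1. Among the 8 genes only Rbpj itself held the shorter form, and none held the longer. The window of Rbpj at chr5:53590096-53590395 (plus strand, 5′ to 3′) is shown with its matches in capitals, on the plus strand from base 102 and on the minus strand from base 186 of the window.
Rbpj: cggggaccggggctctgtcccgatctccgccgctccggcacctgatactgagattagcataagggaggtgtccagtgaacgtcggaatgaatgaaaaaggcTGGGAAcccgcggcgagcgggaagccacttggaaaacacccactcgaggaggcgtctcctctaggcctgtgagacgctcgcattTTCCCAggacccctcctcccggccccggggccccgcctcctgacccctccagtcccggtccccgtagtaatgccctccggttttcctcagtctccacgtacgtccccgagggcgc
A second RefSeq start of Rbpj, at chr5:53590236-53590535, shares the latter match. These windows are short, and no match in a window says only that these letters are not in it.

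The 3 target genes all fell. Hes1, a repressor of the basic helix-loop-helix kind, had counts of 620, 715, 656, 521 and 614 before culture and of 70.7, 98.6, 109 and 103 after culture. The lowest sample before culture was well above the highest after. Hes1 was 6.55-fold lower (log2 fold change −2.71, SE 0.140, adjusted p = 1.54e-09), and −2.67 in the GC-corrected fit. The gene lies on chromosome 16 (30064384 to 30067796, plus strand), and no window of its longest transcript is shared.

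Hey1, a related repressor that is strong in arterial endothelium (chromosome 3, 8663359 to 8667256, minus strand), had counts of 247, 257, 322, 269 and 197 before culture and of 28.3, 42.5, 27.3 and 43.3 after culture. It was 7.31-fold lower, with no overlap (log2 fold change −2.85, SE 0.191, adjusted p = 2.01e-08). Nrarp, which binds the Notch and RBPJ complex and limits it, had counts of 152, 165, 122, 97.1 and 125 before culture and of 35.3, 20.5, 20.9 and 39.5 after culture. It was 4.55-fold lower, also with no overlap (log2 fold change −2.18, SE 0.238, adjusted p = 2.56e-06). It had the lowest level of the 10 genes and the largest standard error. Nrarp lies on chromosome 2 (25180758 to 25183339, plus strand). Of its windows, 77.3% lie in Gm38287, an annotated gene on the opposite strand that was at 0 in every sample. Whether the counting used strand is not given in the sources used here, so the counts of Nrarp are uncertain in this stretch.

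Ordered by level per kilobase before culture, the 10 genes ran from Notch2 (2310 ± 214, SD) and Rbpj (1850 ± 86.1) over Notch1 (786 ± 41.3), Hes1 (426 ± 48.2), Notch4 (405 ± 29.5), Jag2 (384 ± 55.6), Dll4 (252 ± 53.1), Jag1 (136 ± 4.20) and Hey1 (107 ± 18.5) to Nrarp (51.2 ± 10.3). Only genes next to each other in the order were compared by their sample ranges. These overlapped between Notch2 and Rbpj, Hes1 and Notch4, Notch4 and Jag2, and Jag1 and Hey1. After culture the order was Rbpj (1777 ± 144), Notch2 (1195 ± 158), Notch1 (676 ± 145), Jag1 (338 ± 9.76), Hes1 (65.0 ± 11.6), Jag2 (62.7 ± 3.80), Dll4 (45.6 ± 13.97), Notch4 (29.1 ± 7.15), Hey1 (14.6 ± 3.61) and Nrarp (11.3 ± 3.80). Jag1 moved from rank 8 to rank 4. Ranges of neighbours in the order after culture overlapped between Hes1 and Jag2, Jag2 and Dll4, Dll4 and Notch4, and Hey1 and Nrarp. With the length of all annotated exons, Notch2 led Rbpj after culture as well.

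Markers of other cell types fell beside these genes. The endothelial list, fixed because Notch4, Dll4, Jag1 and Hey1 are also known from vessels, had 18 of 18 genes lower, with a median log2 fold change of −3.54 (lowest −5.92, highest −1.49). Its summed normalized count was 42561 to 64139 before and 6738 to 8522 after culture, a 7.19-fold difference. No endothelial marker was at 0 in either group; the most abundant were Vwf, Calcrl, Cdh5 and Eng. The cDC1 list fell beside them, with a sum of 136116 to 165290 before and 42819 to 45698 after culture. In bulk samples fewer cells of a type and less RNA per cell cannot be told apart, and the part of these markers in the fall of the Notch genes was not tested.

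**Figure D3:**
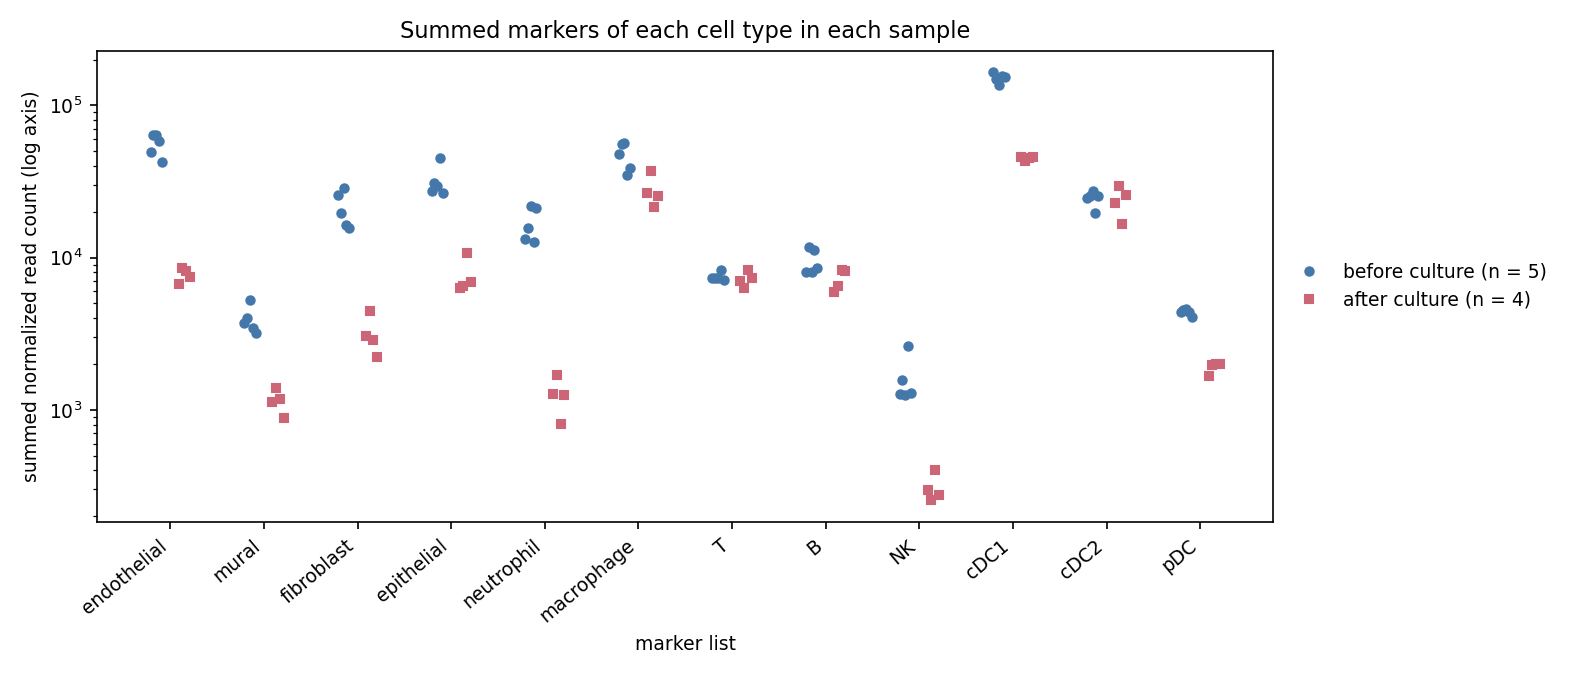
Summed normalized read count (log axis) of 12 marker lists in each sample before (circles, n = 5) and after culture (squares, n = 4). The endothelial sum lies at 42561 to 64139 before and 6738 to 8522 after culture, while the T cell sums of the groups overlap.

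The other lists behaved unequally. Mural cell markers, which cover the vessel wall cells that carry Notch3, had 5 of 8 genes lower and none higher. Their sum was 3199 to 5262 before and 887 to 1388 after culture. It leaned on Mcam, the most abundant of them before culture, which went from 2441 ± 363 to 113 ± 16.8 (SD). Without Mcam the sums of the groups overlap. Acta2 (505 ± 255 against 608 ± 126, SD), Tagln and Cnn1 did not pass the test. Fibroblast markers were lower for 7 of 7 genes (sum 15650 to 28439 against 2211 to 4429). Epithelial markers had 7 of 10 genes lower and 1 higher (26427 to 45286 against 6345 to 10750). Neutrophil markers were lower for 6 of 6 tested genes (12721 to 21985 against 813 to 1687), and Ly6g was at 0 in all samples after culture. The sums of NK cell (1259 to 2630 against 255 to 405) and plasmacytoid dendritic cell markers (4051 to 4565 against 1656 to 1994) were also apart. T cell sums overlapped (7115 to 8290 against 6315 to 8274), as did those of B cells (8036 to 11796 against 5962 to 8330), macrophages (34957 to 56318 against 21463 to 37319) and type 2 conventional dendritic cells (19651 to 27256 against 16602 to 29714). Single genes of these lists still moved. Type 2 conventional dendritic cell markers had 4 of 6 genes lower (lowest log2 fold change −6.31) and 1 higher. Macrophage markers had 6 of 10 lower and 1 higher, T cell markers 3 of 9 and 1, and B cell markers 2 of 6 and 1. Among all tested genes 34.6% were lower and 34.2% higher.

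The rest of the pathway was read from 6 lists with 76 genes, of which 70 were tested. Of these, 16 were higher, 37 lower and 17 not called, beside 34.2% and 34.6% of all tested genes. Their median log2 fold change was −0.29.

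**Figure D4:**
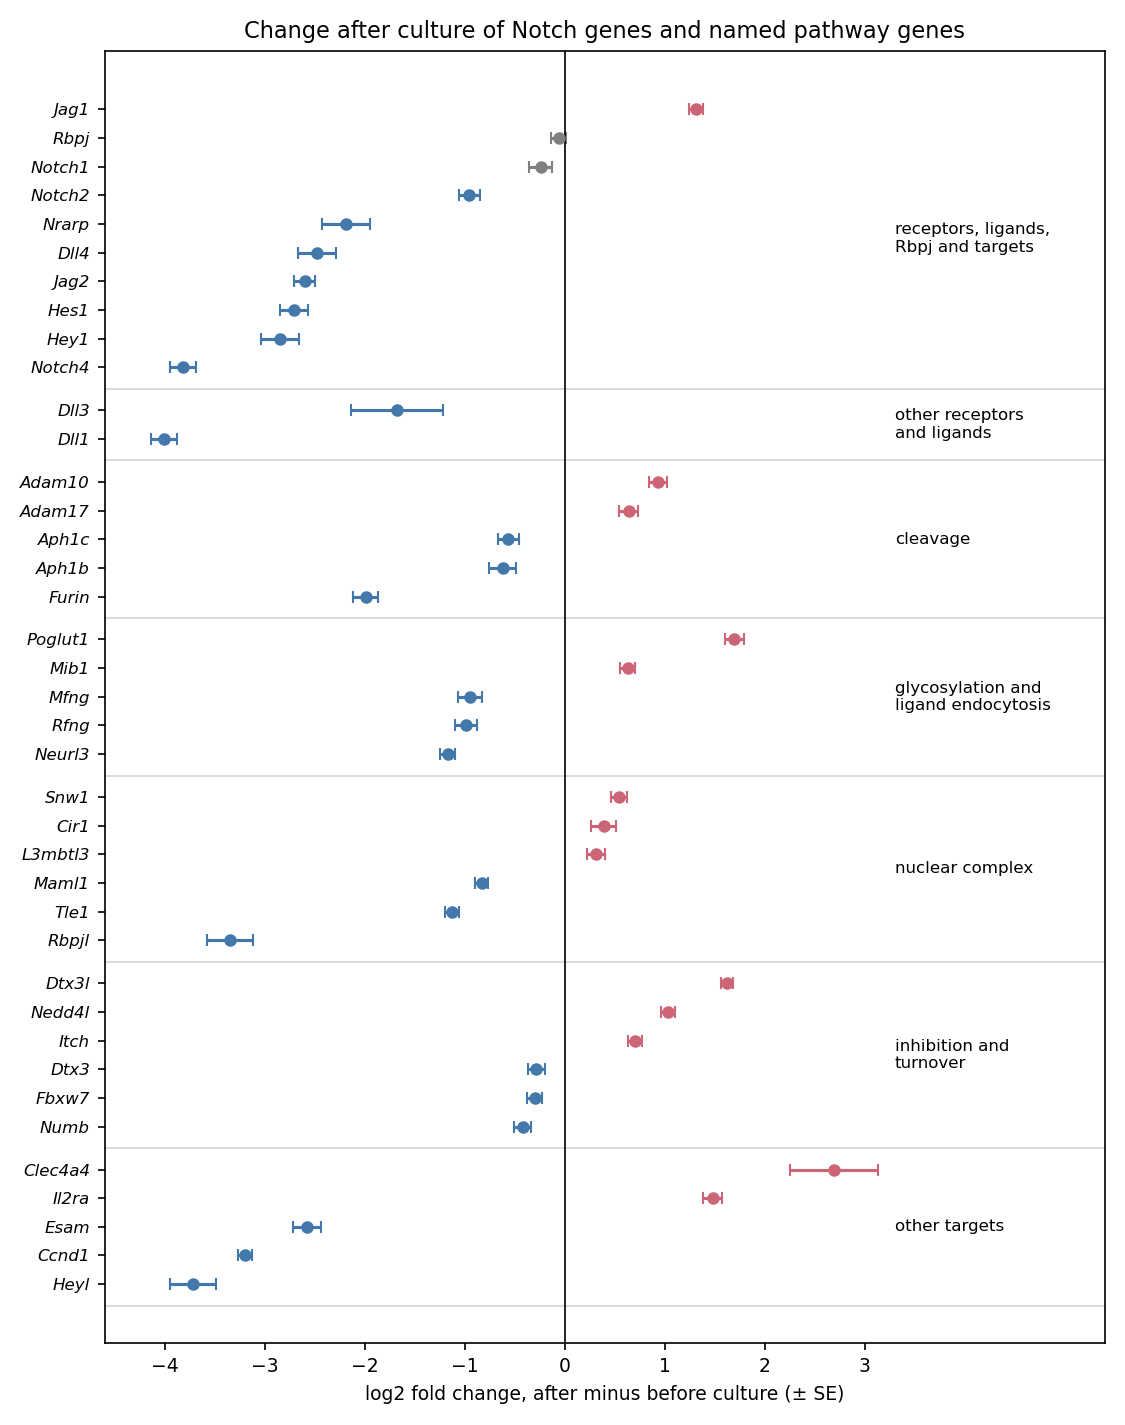
Log2 fold change (after minus before culture, ± SE) of the 10 genes and of the pathway genes named by the rule, grouped by role; coloured points passed the test and grey points did not. The other pathway genes run from −4.01 for Dll1 to 2.70 for Clec4a4.

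Of 10 genes of receptor cleavage, 2 were higher, 3 lower and 5 not called. The called ones include both metalloproteases of the cut that precedes the final one, Adam10 (4592 ± 308 against 8797 ± 1140, SD) and Adam17 (2997 ± 197 against 4699 ± 706, SD). They rose by 0.93 and 0.64 on the log2 scale. Furin, the convertase that matures Notch receptors on their way to the surface, was 3.98-fold lower (24200 ± 3535 against 6087 ± 923, SD). Of γ-secretase, the protease of the final cut, Aph1b and Aph1c were lower (log2 fold changes −0.62 and −0.56). Psen2 (0.067), Ncstn (0.020), Psenen (0.144) and Aph1a (−0.146), also of γ-secretase, did not pass the test. In the GC-corrected fit Psen2 (0.36) and Ncstn (0.16) passed as higher.

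Sugar transfer and ligand endocytosis had 2 of 13 genes higher, 8 lower and 3 not called. Poglut1, which adds glucose to Notch, was 3.25-fold higher (1058 ± 94.0 against 3435 ± 413, SD). Mfng and Rfng, Fringe enzymes that tune which ligand a receptor answers to, were 1.90-fold and 1.98-fold lower. Mib1, the ubiquitin ligase that lets ligands be taken up, was 1.55-fold higher, and Neurl3, which belongs to the Neuralized family, 2.26-fold lower (5526 ± 476 against 2448 ± 103, SD).

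The nuclear complex and its corepressors had 4 of 21 genes higher, 11 lower and 6 not called. Maml1, the Mastermind coactivator, was 1.78-fold lower (log2 fold change −0.83, adjusted p = 1.04e-07) and the Groucho corepressor Tle1 2.18-fold lower (−1.13, adjusted p = 9.93e-09). Rbpjl, a relative of Rbpj, was 10.98-fold lower (141 ± 37.6 against 12.8 ± 2.81, SD). The rises were small, with Snw1 at 0.55, Cir1 at 0.39 and L3mbtl3 at 0.31 on the log2 scale. The rise of Cir1 did not pass without replicate 4 after culture (adjusted p = 0.0507) or in the GC-corrected fit (adjusted p = 0.766).

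Genes of inhibition and turnover had 6 of 12 genes higher, 4 lower and 2 not called. Among all tested genes 34.2% were higher and 34.6% lower. The difference from these shares and from the other lists was not tested. Dtx3l, of the Deltex family, was 3.08-fold higher (2098 ± 83.3 against 6452 ± 213, SD), Nedd4l 2.05-fold and Itch 1.63-fold higher, the last 2 being ubiquitin ligases. Numb, which antagonises Notch at the membrane, was 1.33-fold lower, Fbxw7, which marks the intracellular part of Notch for degradation, 1.23-fold and Dtx3 1.22-fold lower. The fall of Dtx3 turned to a rise of 0.19 on the log2 scale in the GC-corrected fit (adjusted p = 0.0384).

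Of the 14 other targets 11 were tested, with 2 higher and 9 lower. Among them Heyl, Hes7 and Clec4a4 had a mean of at least 10 in a single group only. They passed the filter through the group where they were higher, so the counts by direction are not independent of it. Heyl, the close relative of Hey1, was 14.97-fold lower (97.4 ± 14.7 against 6.51 ± 1.34, SD; log2 fold change −3.72, adjusted p = 8.37e-09). Its level after culture rests on 5 to 10 reads per sample. Ccnd1, cyclin D1, was 9.18-fold lower (4106 ± 285 against 447 ± 4.21, SD). Esam, a marker of Notch2-dependent dendritic cells in spleen that is also an endothelial gene, was 5.95-fold lower (1167 ± 179 against 196 ± 38.5, SD). The 2 higher genes were Il2ra (1491 ± 168 against 4153 ± 400, SD), a Notch target known from T cells, and Clec4a4 (7.76 ± 4.68 against 52.1 ± 23.4, SD), a lectin of splenic dendritic cells whose level was low in both groups. Many of these genes also have regulators outside the pathway.

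Genes with the pattern most like each of the 10 were ranked by the root mean square difference of log2 values over the 9 samples, after each gene was centred on its mean. The nearest to Notch4 were Sox7 (0.166), Dll1 (0.168) and Gm44851 (0.181). Those nearest to Hey1 were Nfatc4 (0.173), Vwf (0.177), which is on the endothelial list, and Plxnb3 (0.184). The nearest to Jag1 was Klhl28 (0.0476), to Jag2 Tamalin (0.118), to Hes1 Dchs1 (0.122), to Dll4 Trabd2b (0.175), to Nrarp H2ac7 (0.200) and to Notch2 Eif4g3 (0.0493). For Notch1 and Rbpj, which did not pass the test in the main fit, the nearest were Gm49342 (0.0479) and Rab11b (0.0431). None of the 3 nearest genes to any of the 10 was another of the 10. Vwf was the only gene of the endothelial list among these nearest genes, most of which are not printed here.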

How the data were processed

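Total RNA of CD103+ lung dendritic cells was sequenced in 5 samples before and 4 after culture. Values are gene-level read counts that the authors had normalized before they were deposited (a signal with no negative values). DESeq2 and build GRCm38 are named in the submitters' processing notes, and the aligner, counter, annotation and strandedness are not given in the sources used here. All values (100%, relative tolerance 1e-06) came out as whole numbers of reads once divided by the value of 1 read in that sample, so whole reads were recovered. Of 49317 rows, 3782 carry no symbol and were kept out of tests; they held 3.87 to 10.9% of the reads of a sample.

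Named genes with a mean of at least 10 (18202) were tested two-sided on a log2 scale with pseudocount 1, using limma 3.58.1 (R 4.3.3) with a mean-variance trend and no covariate beside group. P-values were adjusted over all of them by the Benjamini-Hochberg method, with a threshold of 0.05. Lists were only counted, and the results of some list genes are not reported here. Members and lists were chosen with earlier results of these data known. Lengths, coordinates and shared sequence came from GENCODE M21 (GRCm38), promoters from RefSeq (GRCm38.p6). Pathway genes are named by a rule: the 3 with the smallest adjusted p in each direction per list. For each of the 10 genes the 3 with the most alike pattern were found. All 3 are printed for Notch4 and Hey1 and only the nearest for the others. Notch3, Ly6g, Tagln, Cnn1, Psen2, Ncstn, Psenen, Aph1a, Hes7 and genes below the mean of 10 were added after their values were seen. The fit was tested on simulated counts in which only a small part of the genes changed. That setting cannot show how the fit behaves where most genes change, as they did here. Alternatives were pseudocounts of 0.5 and 8, other filters and scalings, sample weights, edgeR 4.0.16 and DESeq2 1.42.0 on recovered reads, replicate blocks, leaving out each replicate, and a GC-corrected fit, in which a smooth curve over transcript GC content and length was removed from every sample. Other tools were Python 3.11.15, NumPy 2.4.6, pandas 2.3.3, matplotlib 3.10.9 and mgcv 1.9.3.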

Additional observations from a re-analysis of the deposited data

Results flagged for a closer look

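Of 102 sets of values checked (the 10 genes, the pathway genes named by the rule and the marker sums, each in both groups), 8 held a sample far from the others of its group, where chance flags about 1 in 20. Replicate 4 before culture was the sample in 5 of the 8. Its normalized count of Notch2 was 20340, below the 24335 to 25763 of the other 4, and that of Mib1 was 3573, above their 3432 to 3458. Its summed epithelial markers were 45286 (others 26427 to 31036), its T cell markers 8290 (others 7115 to 7388) and its NK cell markers 2630 (others 1259 to 1574). After culture, replicate 3 had summed epithelial markers of 10750 (others 6345 to 6927), replicate 2 summed cDC1 markers of 42819 (others 45338 to 45698) and replicate 1 summed plasmacytoid dendritic cell markers of 1656 (others 1971 to 1994).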

How the results depend on the processing

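Over the 13 alternatives with all samples and the 9 fits that left out 1 sample, the 8 called genes among the 10 kept their direction and passed the threshold. The number lower ran from 7 to 8, also when a replicate was left out, and the number higher was 2 in the GC-corrected fit (each sample's trend over transcript GC content and length removed) and 1 otherwise. Notch1 passed with sample quality weights (−0.26, adjusted p = 0.0227), lay between −0.37 and −0.13 with any 1 replicate omitted, and was 0.36 in the GC-corrected fit, which also gave −0.30 for Rbpj. That fit turned Lfng to 0.081, Mib2 to 0.42, Dnm2 to 0.32, Kdm5a to −0.16, Ctbp1 to 0.098, Numbl to 0.33, Dtx3 to 0.19 and Hes6 to 0.17, and the cause was not tested. Counts over all genes ran from 9925 of 13551 tested (minimum mean of 50) to 14150 of 31592 (no filter); edgeR's quasi-likelihood test on recovered reads called 12562 and DESeq2 12663.

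Pairing by replicate number was not used in the main fit, since the labels do not state a pairing. Same-numbered samples were compared by the correlation of their deviations from the group means. Correlations were −0.21 to 0.081 by title and 0.045 to 0.35 by library name (7 of 8 samples correlated best with their own library number). Replicate 4 before and replicate 3 after culture, which had the most epithelial marker RNA of their groups, share library number 4. A pairing by library name therefore remains possible, and the labels do not settle it. If the samples are paired in this way, the main fit ignores it. A replicate block by title called 11646 genes and one by library name 12836, against 12524 without. Under the library block Notch1 passed (−0.23, adjusted p = 0.0297); no other call among the 10 genes changed. With 23 to 52 reads per sample after culture, counting limits the precision of Nrarp most.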

Other observations

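Pathway genes below the mean of 10 were not tested. Hes5 had a normalized count of 8.01 ± 4.99 before and 3.54 ± 0.947 after culture, and Hey2 one of 11.4 ± 7.38 against 4.82 ± 1.77 (SD, n = 5 and n = 4). Groups overlapped for both. Dlk1, Dlk2, Dner and Ptcra were covered by at most 6, 10, 14 and 4 reads in any sample.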
